A study of Homo sapiens with 4 samples.

Results

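The genes examined here encode 9 enzymes that carry farnesyl diphosphate through squalene and lanosterol to cholesterol: FDFT1, SQLE, LSS, CYP51A1, TM7SF2, NSDHL, HSD17B7, EBP and DHCR7. They were taken by gene symbol from a table of 62077 rows, keeping rows on assembled chromosomes, which left 9 of 11 rows. The other 2 rows were copies of EBP and NSDHL on patch contigs and were listed at 0 in every library. RNA sequencing was performed in 4 libraries of FaDu, a cell line established from a squamous carcinoma of the hypopharynx. N-scr was the scrambled control in normoxia, N-si was TET1 knockdown (TET1-si) in normoxia, H-scr was the scrambled control in hypoxia and H-si was TET1-si in hypoxia. Hypoxia meant 1% oxygen for 19 h with 5% CO2. All 4 groups were grown in medium with 10% fetal bovine serum, and the study's methods describe lentiviral short hairpin vectors for both the knockdown and the scrambled control. The study calls its FaDu control and knockdown cells clones, though its methods describe infected cells used some days later and no cloning step. A difference between them can also be one between separately infected cells or clones. Cells carrying the scrambled vector are called control cells, and those with TET1-si are called knockdown cells. Each group was 1 library, so no difference between groups could be set against replicate error and no p-value is given. The study asked which genes responded to hypoxia through TET1, a dioxygenase that converts 5-methylcytosine to 5-hydroxymethylcytosine, and cholesterol metabolism was a gene group it followed.

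Cholesterol is made from acetyl units. The mevalonate pathway ends in farnesyl diphosphate, which also feeds ubiquinone, dolichol and protein prenylation, and squalene synthesis commits it to sterols. Most genes of the route are activated by the transcription factor SREBP-2 when the endoplasmic reticulum is poor in sterol, together with the CCAAT-binding factor NF-Y and SP1, while INSIG proteins hold SREBP back when sterol is plentiful. Several steps after squalene consume molecular oxygen, among them those of SQLE and CYP51A1.

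The values are FPKM, fragments per kilobase of exon scaled to the mapped reads of the library, so levels of different genes are compared per length. The depths recovered from the steps between low values ran from 22500000 to 24600000 reads per library. TET1 itself was low but lower in both knockdown libraries, at 0.129 FPKM in N-scr against 0.0493 in N-si and 0.331 in H-scr against 0.122 in H-si, on approximately 11 to 77 reads. Of 10 squamous epithelial markers, 9 were at 1 FPKM or more in every library. The exception was KRT14, which was at 42.1 FPKM in N-scr and 0.487 in N-si, against 99.9 in H-scr and 1.41 in H-si. Of 4 leukocyte markers 3 were below 1 FPKM in every library, with CD3E at 0 and PTPRC at 0 to 0.0101 FPKM, and ITGAM ran from 0.994 in N-si to 2.25 in H-si. Of 5 fibroblast markers 4 were below 1 FPKM in every library, with COL1A2 and LUM at 0, and COL1A1 ran from 5.29 in N-scr to 37.0 in H-si. Of the endothelial markers, VWF ran from 0.160 FPKM in N-scr to 2.94 in H-si and CDH5 from 8.75 to 45.5. The summed level of the squamous markers was 5247 FPKM in N-scr and 2353 in N-si, against 8220.3 in H-scr and 4665 in H-si, most of it KRT5 and KRT17. After TET1-si under hypoxia 5 of these 10 markers were higher, CDH1, EPCAM and JUP among them, and 5 lower, with a median of 0.03. Of the 10, 0 were 2-fold or more higher and 3 2-fold or more lower, beside 12.0% and 8.35% of genes averaging at least 1 FPKM. These 3 were KRT14 at -6.05, KRT5 at -1.48 and SFN at -1.14 on the log2(FPKM + 0.1) scale. The part of all these markers in the results was not tested. In bulk RNA, fewer cells of a kind and less RNA per cell cannot be told apart.

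All 9 genes had their highest level in H-scr. Summed over the 9, the level was 680.1 FPKM in N-scr and 440.1 in N-si, against 2719 in H-scr and 549.6 in H-si. As TPM, which gives every library the same total, H-scr summed to 3585, H-si to 759.4, N-scr to 826.2 and N-si to 553.2. In these sums the H-scr library stood alone, and H-si lay between the normoxia libraries. Gene by gene, H-si lay between them for FDFT1, SQLE and DHCR7. It was above both for LSS, TM7SF2 and HSD17B7, and below both for CYP51A1, NSDHL and EBP. For CYP51A1 and NSDHL the gap between H-si and N-si was within counting error. With TPM, H-si was above N-si for these genes, by 0.13 and 0.07 on the log2 scale. In normoxia the most abundant genes were EBP and DHCR7, which act at the end of the route, followed by SQLE and FDFT1, which act at its start. In H-scr DHCR7 led with 711 FPKM, at or above 99.1% of the expressed genes, meaning those whose FPKM averaged at least 1 over the libraries. TM7SF2 was the lowest of the 9 in N-scr, H-scr and N-si, and NSDHL the lowest in H-si. HSD17B7 and LSS, neighbours in the N-scr order, were both at 15.7 FPKM there.

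**Figure D1:**
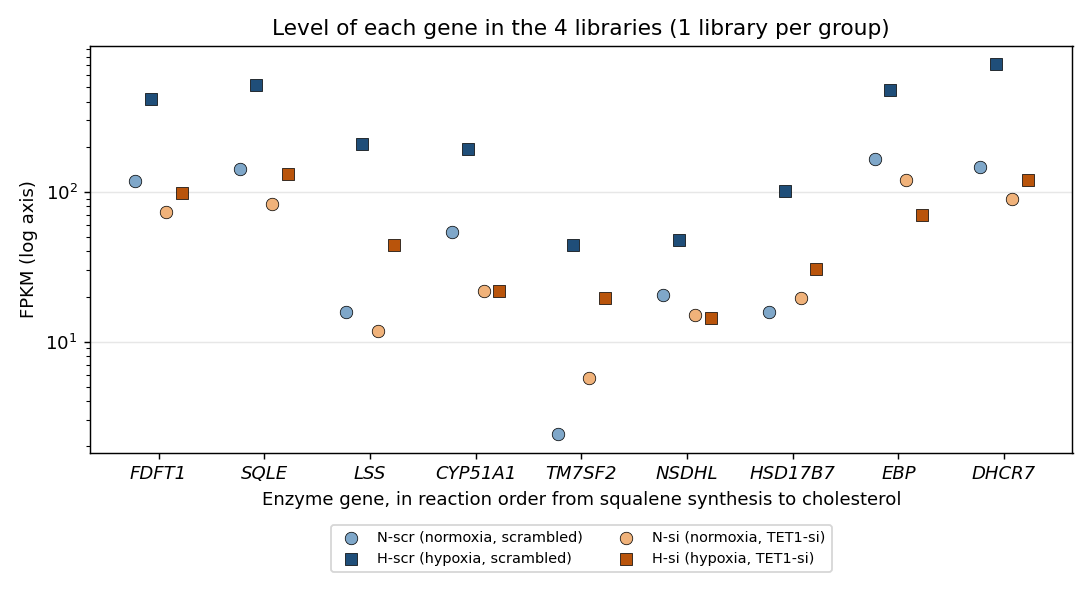
FPKM (log axis) of the 9 enzyme genes in reaction order, with 1 point for each of the 4 libraries and no error bars because each group has 1 library. The dark blue squares of H-scr are the highest point for every gene, from 44.01 FPKM for TM7SF2 to 711 for DHCR7.

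The promoter regions of 7 of the 9 genes were examined because all 9 were highest in H-scr, though their order in the other libraries differed. No window was held for FDFT1 or SQLE. RefSeq windows of 300 bases (250 before to 50 after the start site, GRCh38.p14) were held for HSD17B7, CYP51A1, TM7SF2, DHCR7, LSS, EBP and NSDHL, with 2 start sites for DHCR7 and 8 windows in all. The same stretch of 140 bases, from 160 to 21 bases before the start site, is shown for each on the strand of the gene. Capitals mark the letters CCAAT, the box that NF-Y binds, or its reverse complement ATTGG. The stretches lie at chr1:162790542-162790681 (plus strand), chr7:92134498-92134637 (minus), chr11:65111712-65111851 (plus), chr11:71448414-71448553 (minus), chr21:46228795-46228934 (minus), chrX:48521648-48521787 (plus) and chrX:152830903-152831042 (plus), in the order of the lines.
HSD17B7: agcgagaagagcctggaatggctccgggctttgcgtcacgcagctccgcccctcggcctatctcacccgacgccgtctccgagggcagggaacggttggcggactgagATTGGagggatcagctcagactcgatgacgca
CYP51A1: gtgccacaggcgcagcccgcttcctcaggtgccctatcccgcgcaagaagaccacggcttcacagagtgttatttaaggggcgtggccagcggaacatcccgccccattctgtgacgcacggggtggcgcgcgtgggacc
TM7SF2: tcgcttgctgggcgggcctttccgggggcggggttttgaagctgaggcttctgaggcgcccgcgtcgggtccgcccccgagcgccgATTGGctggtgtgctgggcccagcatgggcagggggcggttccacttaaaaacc
DHCR7: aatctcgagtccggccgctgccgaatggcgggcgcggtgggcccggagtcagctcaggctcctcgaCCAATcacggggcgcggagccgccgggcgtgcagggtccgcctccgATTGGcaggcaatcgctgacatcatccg
LSS: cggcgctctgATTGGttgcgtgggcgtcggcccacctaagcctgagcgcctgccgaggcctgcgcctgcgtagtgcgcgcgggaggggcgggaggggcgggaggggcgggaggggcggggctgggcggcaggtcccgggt
EBP: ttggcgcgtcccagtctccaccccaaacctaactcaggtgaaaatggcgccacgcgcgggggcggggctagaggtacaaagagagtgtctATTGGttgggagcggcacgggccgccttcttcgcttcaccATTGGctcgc
NSDHL: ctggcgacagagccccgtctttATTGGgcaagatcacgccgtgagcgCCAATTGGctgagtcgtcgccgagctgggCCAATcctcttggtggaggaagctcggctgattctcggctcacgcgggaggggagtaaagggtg

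Searched on both strands of the whole windows, CCAAT was found for 6 of these 7 genes, in 6 of the 8 windows, against 34.6% of all 35116 windows of that length. NSDHL held 5 matches, of which a pair overlaps, EBP 3, DHCR7 and HSD17B7 2 each, and LSS and TM7SF2 1 each, some of them outside the stretch shown. The SP1 letters GGGCGG were in 6 of the 8 windows, against 44.95% of all windows. TCACNCCAC, the core of the sterol regulatory element of the LDL receptor gene, was in 0 of the 8 windows and in 1.13% of all windows. ACGTG, the core of the hypoxia response element, was in 2 of the 8 windows and in 21.4% of all windows. These were the LSS window, where it lies inside the E-box CACGTG just after the start site, and the upstream window of DHCR7. CACGTG itself was in 1 member window, against 7.26% of all windows. CYP51A1 held neither CCAAT nor ACGTG in its window. A match describes the letters of the window and not a bound site, and a missing match says only that these letters are not in the window.

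The route opens with FDFT1, squalene synthase, which joins a pair of farnesyl diphosphates (ENSG00000079459, chromosome 8, 11653082 to 11696818, plus strand, hg19, 8 exons in the canonical transcript). FDFT1 was at 118 FPKM in N-scr and 73.8 in N-si, against 419 in H-scr and 98.2 in H-si. It was 3.57-fold higher in hypoxia in control cells and 1.33-fold higher in knockdown cells, and H-scr was 4.27 times H-si. SQLE, squalene epoxidase, adds oxygen to squalene and is a control point of the pathway (ENSG00000104549, chromosome 8, 126010739 to 126034525, plus strand, 11 exons). Its level followed the same order, with SQLE at 141 FPKM in N-scr and 83.3 in N-si, against 516 in H-scr and 131 in H-si. Hypoxia over normoxia was 3.65-fold in control cells and 1.58-fold in knockdown cells. For both genes H-si was lower than N-scr, at 83.6% of it for FDFT1 and 92.9% for SQLE.

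LSS, lanosterol synthase, folds oxidosqualene into the sterol ring system (ENSG00000160285, chromosome 21, 47608360 to 47648738, minus strand, 22 exons). LSS was at 15.7 FPKM in N-scr and 11.9 in N-si, against 208 in H-scr and 44.2 in H-si. A low normoxia level and a high level in H-scr made a ratio of 13.2 in control cells, against 3.73 in knockdown cells. On the log2(FPKM + 0.1) scale the hypoxia response of LSS in control cells, 3.72, ranked 149 from the highest among the 15057 expressed genes. LSS lies on a chromosome whose other 114 expressed coding genes were, at the median, 0.71 higher in H-si than in H-scr on that scale and 0.77 higher in N-si than in N-scr. LSS itself was lower in both TET1-si libraries, at -2.23 and -0.40. An antisense gene that shares 122 bases of exon with LSS, AP001469.5 (ENSG00000223901), was at 1.12, 11.5, 0.785 and 2.57 FPKM in N-scr, H-scr, N-si and H-si, and the reads are not stated to keep strand, so the levels of this pair cannot be told apart with certainty.

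CYP51A1 is the cytochrome P450 that removes a methyl group from lanosterol with molecular oxygen (ENSG00000001630, chromosome 7, 91741465 to 91772266, minus strand, 10 exons). CYP51A1 was at 53.7 FPKM in N-scr and 21.9 in N-si, against 192 in H-scr and 21.7 in H-si. Hypoxia over normoxia was 3.58 in control cells and 0.994 in knockdown cells. The 95% counting interval of the latter log2 ratio ran from -0.11 to 0.10 and covers counting error only. On the deposited scale, no difference between H-si and N-si was detectable at this depth. With TPM the log2 difference was 0.13, a shift that would bring the interval above 0. CYP51A1 had the widest gap between the hypoxia libraries among the 9 genes, with H-scr at 8.85 times H-si. It was also the only one 2-fold or more lower in N-si than in N-scr, with N-scr at 2.46 times N-si. The 50 nearest expressed coding genes on chromosome 7 had median TET1-si responses of -0.37 under hypoxia and -0.35 under normoxia, against -3.14 and -1.29 for CYP51A1. The opposite-strand gene AKAP9, which shares 108 bases of exon with CYP51A1, was at 23.4 FPKM in H-scr and 38.6 in H-si, in the reverse order.

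TM7SF2 is a sterol reductase that acts on the product of CYP51A1 (ENSG00000149809, chromosome 11, 64879317 to 64883856, plus strand, 10 exons). TM7SF2 was at 2.40 FPKM in N-scr and 5.75 in N-si, against 44.01 in H-scr and 19.5 in H-si. Its read numbers were small for N-scr, approximately 75 by the canonical transcript and 176 by the union of exons, with 193 for N-si by the former. In hypoxia they were 1479 without and 600 with TET1-si. Its ratio of hypoxia to normoxia in control cells, 18.3, was the highest of the 9 genes, with a counting interval of the log2 ratio from 3.86 to 4.55. In knockdown cells the ratio was 3.39. TM7SF2 was higher after TET1-si in normoxia, at 2.39 times N-scr with a log2 interval from 0.87 to 1.67, and lower after TET1-si in hypoxia, with H-scr at 2.25 times H-si. H-si was at 812.4% of N-scr for TM7SF2, the highest such value of the 9.

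NSDHL and HSD17B7 work together in taking methyl groups off the sterol at carbon 4, NSDHL as a dehydrogenase and HSD17B7 as the reductase that follows it. NSDHL (ENSG00000147383, chromosome X, 151999511 to 152038273, plus strand, 8 exons) was at 20.6 FPKM in N-scr and 15.1 in N-si, against 47.9 in H-scr and 14.5 in H-si. It had the smallest ratio of hypoxia to normoxia in control cells, 2.32, and in knockdown cells its ratio of 0.956 had a log2 counting interval from -0.24 to 0.10. HSD17B7 (ENSG00000132196, chromosome 1, 162760492 to 162782607, plus strand, 9 exons) was at 15.7 FPKM in N-scr and 19.7 in N-si, against 101 in H-scr and 30.4 in H-si. HSD17B7 was 6.44-fold higher in hypoxia in control cells and 1.55-fold higher in knockdown cells. HSD17B7 and TM7SF2 were the 2 genes of the 9 that were higher in N-si than in N-scr, HSD17B7 by 1.25-fold with a counting interval from 0.15 to 0.49 on the log2 scale. That difference of 0.32 was 0.15 with median-of-ratios scaling, a shift that would bring the lower bound of the interval to 0, and 0.20 with upper-quartile scaling. Its 50 nearest coding genes had a median TET1-si response of 0.59 in normoxia, above the 0.32 of HSD17B7 itself.

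EBP, the emopamil binding protein, is a sterol isomerase (ENSG00000147155, chromosome X, 48379546 to 48387104, plus strand, 5 exons). EBP was at 165 FPKM in N-scr and 119 in N-si, against 480.2 in H-scr and 70.3 in H-si. It was 2.91-fold higher in hypoxia in control cells and lower in hypoxia in knockdown cells, where the ratio was 0.590 with a log2 counting interval from -0.86 to -0.67. EBP was the only gene of the 9 whose hypoxia response was positive in control cells and negative in knockdown cells with both intervals away from 0. DHCR7 reduces the last double bond on the way to cholesterol (ENSG00000172893, chromosome 11, 71139239 to 71163914, minus strand, 9 exons). DHCR7 was at 148 FPKM in N-scr and 89.5 in N-si, against 711 in H-scr and 119 in H-si. DHCR7 was 4.81-fold higher in hypoxia in control cells and 1.33-fold higher in knockdown cells, and H-scr was 5.96 times H-si.

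Across the 9 genes, the hypoxia response in control cells (H-scr against N-scr) was 2-fold or more higher for 9 and 2-fold or more lower for 0. Of all 15057 genes, 12.9% were 2-fold or more higher and 4.53% 2-fold or more lower in this contrast. The median difference of the 9 was 1.87 on the log2(FPKM + 0.1) scale, with a range from 1.21 to 4.14, beside 0.05 for all genes. In knockdown cells (H-si against N-si), 2 genes, LSS and TM7SF2, were 2-fold or more higher and 0 were 2-fold or more lower, beside 12.5% and 8.66% of all genes. The median was 0.41, with a range from -0.76 to 1.89, beside 0.03 for all genes. FDFT1, SQLE, HSD17B7 and DHCR7 were higher by less than 2-fold and EBP was lower. CYP51A1 and NSDHL were level within counting error on the deposited scale.

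After TET1-si under hypoxia (H-si against H-scr), 9 of the 9 were 2-fold or more lower and 0 2-fold or more higher, beside 8.35% and 12.0% of all genes. The median was -2.09, from -3.14 for CYP51A1 to -1.17 for TM7SF2, beside 0.10 for all genes. In normoxia (N-si against N-scr), 1 gene, CYP51A1, was 2-fold or more lower and 1, TM7SF2, 2-fold or more higher, beside 5.56% and 12.1% of all genes. The median there was -0.47, beside 0.15 for all genes. The TM7SF2 value of 1.23 was 0.99 with a pseudocount of 1, short of 2-fold. Median-of-ratios scaling, which moves the median of all genes in this contrast from 0.15 to near 0, put 9.42% of all genes 2-fold or more higher and 7.41% lower, and under hypoxia 9.82% higher and 10.1% lower after TET1-si. The contrasts share libraries, and the high level of H-scr enters both the hypoxia response in control cells and the TET1-si response under hypoxia. The difference of hypoxia responses, that of knockdown cells less that of control cells, was negative for all 9 genes, from -2.39 for TM7SF2 to -1.21 for SQLE, with a median of -1.85 beside -0.06 for all genes. The counts of the 9 genes were the same with TPM, median-of-ratios and upper-quartile scaling.

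**Figure D2:**
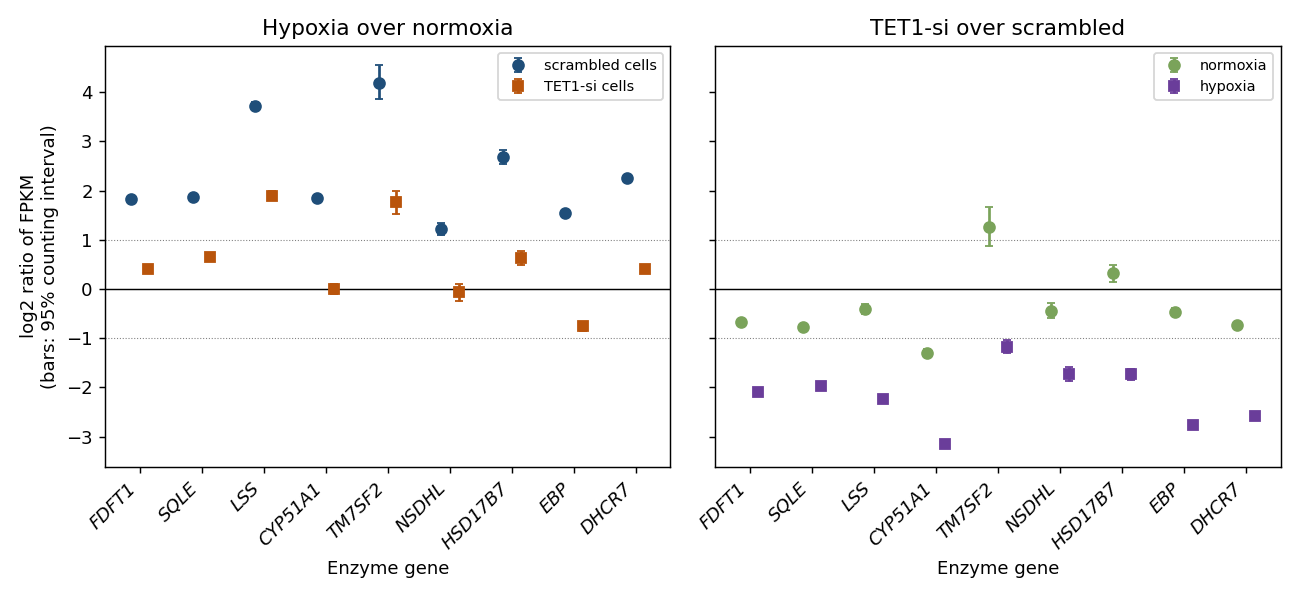
The log2 ratio of FPKM for the 9 genes, hypoxia over normoxia in each knockdown state (left) and TET1-si over scrambled in each oxygen state (right), with bars for the 95% counting interval and dotted lines at a 2-fold difference. On the left every scrambled point lies above the TET1-si point of the same gene. On the right every hypoxia point lies below the normoxia point, which is the same inequality among the 4 libraries and adds no separate observation.

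From RNA-Seq, the study selected genes with 3 inequalities on FPKM. A gene had to exceed its H-si level more than 2-fold in H-scr, to be higher in H-scr than in N-scr, and to be no lower in N-scr than in N-si. Of the 9 genes, 7 met all of them, beside 3.84% of all 15057 genes. TM7SF2 and HSD17B7 met the first and the second and missed the third, with N-scr at 0.418 and 0.801 of N-si.

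SQLE and CYP51A1 use molecular oxygen, as do MSMO1 and SC5D (listed as SC5DL), a sterol oxidase and a desaturase outside the 9. In control cells the hypoxia responses of SQLE and CYP51A1 were 1.87 and 1.84, and those of the 7 genes whose reactions use no oxygen ranged from 1.21 to 4.14. MSMO1 was at 42.3 FPKM in N-scr and 25.8 in N-si, against 184 in H-scr and 40.5 in H-si, an order like that of SQLE. SC5D was at 32.5, 95.5, 32.6 and 56.2 FPKM in N-scr, H-scr, N-si and H-si, and after TET1-si under hypoxia it was lower by less than 2-fold, at -0.76. After TET1-si under hypoxia CYP51A1, at -3.14, lay below the range of the 7, which was -2.77 to -1.17, and SQLE, at -1.97, within it.

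Of 3 homologues of single enzymes, LBR and EBPL were not highest in H-scr, while HSD17B7P2 was. LBR, a nuclear envelope protein with the same sterol reductase activity as TM7SF2, was at 70.1 FPKM in N-scr and 81.9 in N-si, against 61.5 in H-scr and 58.5 in H-si. LBR was 29.2 times TM7SF2 in N-scr and 1.40 times in H-scr, so that TM7SF2 made up 3.31% and 41.7% of the pair. In knockdown cells TM7SF2 was 6.56% of the pair in normoxia and 25.04% in hypoxia. EBPL, a paralogue of EBP, was at 51.8, 25.6, 61.0 and 47.4 FPKM in N-scr, H-scr, N-si and H-si, lowest in the library where EBP was highest. EBP was 18.7 times EBPL in H-scr and from 1.48 to 3.19 times in the other libraries. HSD17B7P2, a pseudogene of HSD17B7 on chromosome 10, was at 3.72 and 2.87 FPKM in normoxia and at 24.4 and 6.11 in hypoxia, scrambled control before TET1-si. HSD17B7 was 4.23, 4.15, 6.85 and 4.97 times HSD17B7P2 in N-scr, H-scr, N-si and H-si, and reads that fit both copies make the level of each uncertain.

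**Figure D3:**
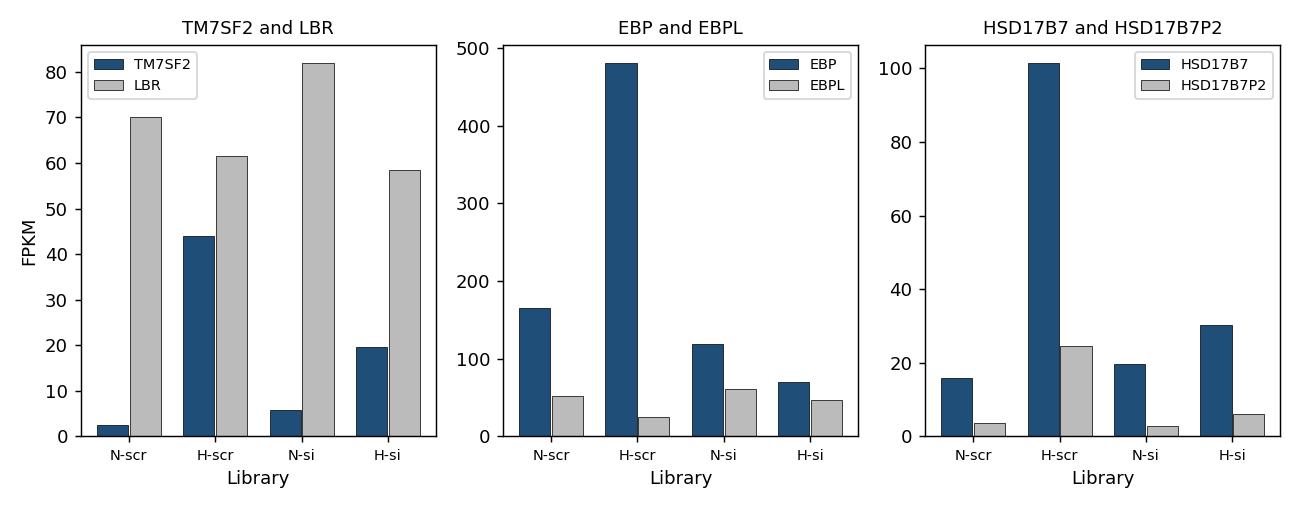
FPKM in the 4 libraries for TM7SF2 with LBR, EBP with EBPL and HSD17B7 with HSD17B7P2, as bars from 0 with no error bars because each group has 1 library. LBR stays between 58.5 and 81.9 FPKM while TM7SF2 runs from 2.40 to 44.01, and EBPL is lowest in H-scr where EBP is highest.

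Genes elsewhere in the pathway were taken in lists by their place in it. Of all 15057 genes, 12.9% were 2-fold or more higher and 4.53% lower in hypoxia in control cells. In knockdown cells 12.5% were 2-fold or more higher in hypoxia. After TET1-si under hypoxia 12.0% were 2-fold or more higher and 8.35% lower. The counts in each list stand beside these shares. Of the 8 mevalonate enzymes, which lead up to farnesyl diphosphate, 7 were 2-fold or more higher in hypoxia in control cells and 0 in knockdown cells, and 7 were 2-fold or more lower after TET1-si under hypoxia. Their median TET1-si response under hypoxia was -2.28. ACAT2, which makes acetoacetyl-CoA, was lowest at -3.04, with 92.1 FPKM in H-scr and 11.1 in H-si. PMVK, phosphomevalonate kinase, was highest at 1.18, with 7.47 FPKM in H-scr and 17.1 in H-si. Of the 6 other genes listed with the sterol steps after squalene, 4 were 2-fold or more higher in hypoxia in control cells. EBPL, the paralogue of EBP, was the 1 gene 2-fold or more lower, and whether it carries out a sterol step was not tested. After TET1-si under hypoxia 3 of the 6 were 2-fold or more lower, MSMO1 the lowest at -2.18, and the median was -0.97.

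Of the 8 genes that draw on prenyl diphosphates before squalene, 0 were 2-fold or more higher and 1, PDSS1 of ubiquinone synthesis, 2-fold or more lower in hypoxia in control cells. Their median was -0.36 in that contrast and -0.17 after TET1-si under hypoxia, where PDSS1 was lowest at -1.04 and DHDDS, a dolichol synthesis gene, highest at 0.50. Of the 10 sterol sensing and uptake genes, 6 were 2-fold or more higher in hypoxia in control cells and 3 in knockdown cells, and 5 were 2-fold or more lower after TET1-si under hypoxia. SCAP, the escort of SREBP, was highest at 0.58. SREBF2, which encodes SREBP-2, was at 84.9 FPKM in N-scr and 46.1 in N-si, against 193 in H-scr and 85.8 in H-si.

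POR, the reductase that passes electrons to SQLE and CYP51A1, was the lowest of 4 electron donors after TET1-si under hypoxia. It was at 88.0 FPKM in N-scr and 40.9 in N-si, against 123 in H-scr and 47.3 in H-si, so that both TET1-si libraries were below both scrambled ones. CYB5R3 was the highest of the 4, at -0.13, and 2 of the 4, POR and CYB5B, were 2-fold or more lower. Among 4 ubiquitin ligases of sterol enzyme turnover, 0 were 2-fold or more different in hypoxia in control cells. MARCH6, which targets SQLE, was the lowest of them after TET1-si under hypoxia at -0.47. Of 6 genes for oxysterol receptors, their targets and esterification, ABCA1 and ABCG1 were below a mean of 1 FPKM, and the other 4 had a median of 0.36 after TET1-si under hypoxia, from 0.12 for SOAT1 to 0.62 for MYLIP. Of 8 hypoxia reference genes, 7 were 2-fold or more higher in hypoxia in control cells and 6 in knockdown cells, with medians of 2.46 and 1.57. The difference of hypoxia responses was negative for all 8 of them, as for the 9 enzyme genes, with a median of -0.82. Their median TET1-si response under hypoxia was -0.21, from -3.71 for CA9, a carbonic anhydrase, to 0.86 for PDK1, a kinase that restrains pyruvate oxidation.

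**Figure D4:**
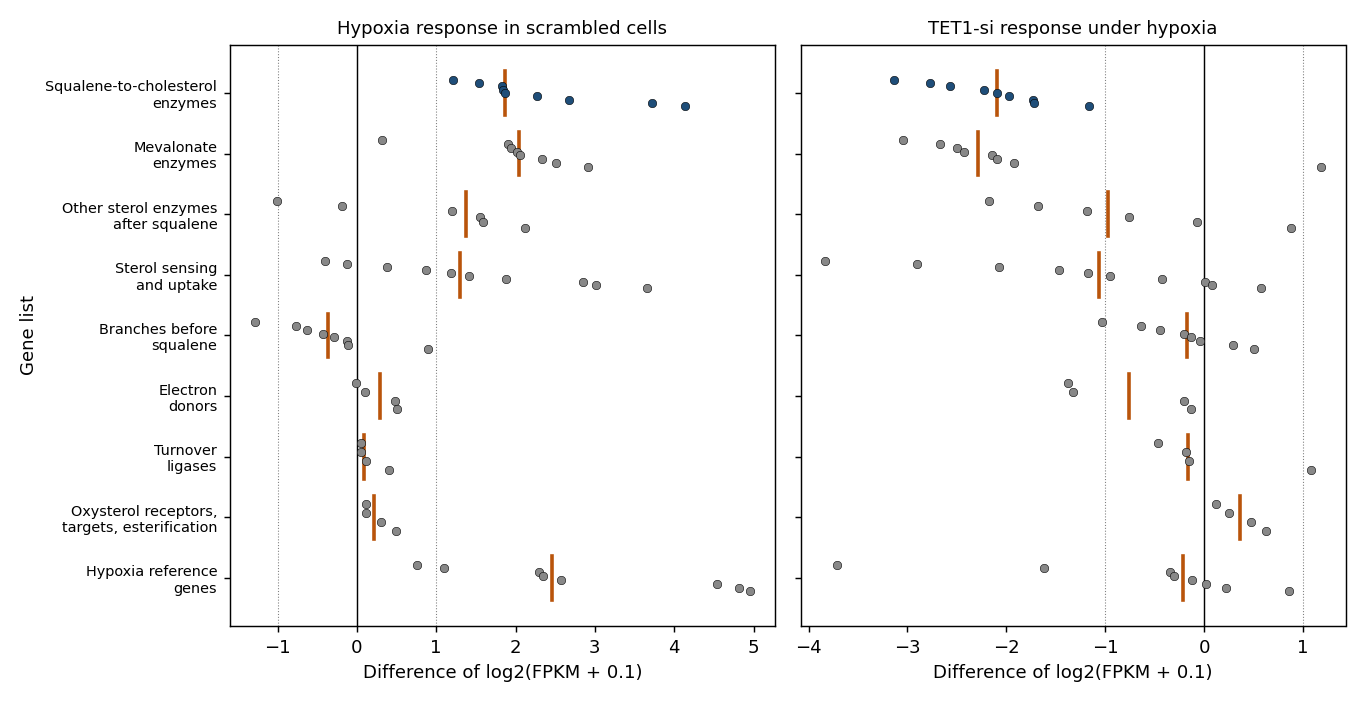
Difference of log2(FPKM + 0.1) for each gene (points) and the median (orange line) of the 9 enzyme genes and 8 other lists, for the hypoxia response in control cells (left) and the TET1-si response under hypoxia (right), with dotted lines at a 2-fold difference. The 9 enzyme genes (blue) lie from 1.21 to 4.14 on the left and from -3.14 to -1.17 on the right, and the list of branches before squalene has medians of -0.36 and -0.17.

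The pattern of the 9 over the 4 libraries was compared with that of 10777 other genes whose FPKM averaged at least 5, as the Euclidean distance between centred log2(FPKM + 0.1) values and the median of the 9. MVK, mevalonate kinase, was nearest at 0.0448, with 28.8, 108, 18.2 and 24.4 FPKM in N-scr, H-scr, N-si and H-si. Among the next 9 were CTD-2636A23.2, CCL5, IDI1, MSMO1, EMP3, ISG20, AP3B2 and HMGCS1, at distances from 0.137 to 0.385. MVK, IDI1 and HMGCS1 are mevalonate enzymes and MSMO1 is a sterol enzyme. CCL5 is a chemokine and ISG20 an interferon-induced exonuclease. Among the 9, FDFT1 lay closest to their median at 0.0892 and TM7SF2 farthest at 2.32. With 4 points a likeness is a description only.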

How the data were processed

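RNA-Seq was performed on 4 libraries, 1 per group. Per the labels and the study's methods, the authors aligned 100 bp TruSeq reads to hg19 with TopHat and Cufflinks and Ensembl annotations, and deposited gene-level FPKM. Versions and filters are not given in the sources used here. The labels call the reads single end and the study's methods paired end. No count test was run, since FPKM are not counts. Differences were taken as log2(FPKM + 0.1), which understates the change of low genes, and fold ratios of single genes carry no pseudocount. Shares over all genes used the 15057 genes whose FPKM averaged at least 1 (expressed genes), leaving out 111 gene IDs that stand on several rows. Depth was recovered from 8006 single-exon genes of GENCODE v44lift37 as the depth and length offset (212 bp) that made low values whole reads within 0.05. This held for 96.3% to 96.9% of those values. Approximate reads used the canonical transcript length, and 95% intervals of a ratio are exact (Clopper-Pearson). They cover counting error only. Calls and depth recovery were tested on simulated data that held counting error only. That test cannot show how far replicate libraries would differ. Where a symbol stood on several gene IDs, the ID that the annotation pairs with it was used.

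All 9 enzyme genes are named, and each other list gives its highest and lowest gene for the TET1-si response under hypoxia among its expressed genes, plus homologues and genes of the same step. Genes among the 10 of nearest pattern are named too, a few genes that this rule picks are not reported here, and SREBF2, CYB5B and AKAP9 were chosen after their values were seen. Gene coordinates are those of the hg19 annotation, and promoter windows those of RefSeq. The genes and lists were chosen with earlier results of these data known. Alternatives were other pseudocounts, filters, fold thresholds and scalings. Analysis used Python 3.11.15, pandas 2.3.3 and SciPy 1.17.1.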

Additional observations from a re-analysis of the deposited data

Results flagged for a closer look

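With 1 library per group, no search for a deviating sample was made. Direction differed between states for 3 of the 9 genes, with both counting intervals away from 0 on the deposited scale, and these differences were not tested because there are no replicates. The hypoxia response of EBP was 1.54 in control cells (scrambled vector) and -0.76 in knockdown cells, on the log2(FPKM + 0.1) scale. TM7SF2 was -1.17 after TET1-si under hypoxia and 1.23 under normoxia. HSD17B7 was -1.73 after TET1-si under hypoxia and 0.32 under normoxia, and the latter was 0.15 with median-of-ratios scaling.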

How the results depend on the processing

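Each group holds 1 library, so leaving out replicates was not possible. No paired analysis was possible because the groups have no replicates. Of 97 recomputed counts and medians, 81 stayed within 1.5 times the count or within the counting interval and 0 reversed. The 81 include counts under other filters on low values. Those could not change, because each of the 9 genes averaged 17.9 FPKM or more, and the filters moved only the shares of all genes. With TPM the median hypoxia response of the 9 genes was 1.98 in control and 0.55 in knockdown cells, and their median TET1-si response under hypoxia was -2.02. Median-of-ratios scaling gave 1.81 for the hypoxia response of control cells, and TET1-si responses of -2.21 in hypoxia and -0.64 in normoxia. Upper-quartile scaling gave 1.91 and 0.52 for the hypoxia responses, and -2.15 and -0.59 for the TET1-si responses. A pseudocount of 1 left 0 genes 2-fold or more higher after TET1-si in normoxia, with TM7SF2 at 0.99. At a 1.5-fold threshold, hypoxia in knockdown cells gave 4 genes higher and 1 lower, beside 23.7% and 19.0% of all genes. At that threshold 4 were lower after TET1-si in normoxia, beside 12.0% of all genes. With 1 mismatch TCACNCCAC was in 2 of the 8 promoter windows, against 24.5% of all windows. Pearson correlation kept 3 of the 10 genes most like the 9. The hypoxia responses of CYP51A1 and NSDHL in knockdown cells turned from -0.01 and -0.06 to 0.13 and 0.07 with TPM and to 0.10 and 0.04 with upper-quartile scaling. These scalings multiply every gene of a library by the same factor, and the cause of the other shifts was not tested. Depth limited TM7SF2 most, at approximately 75 reads in N-scr, or 176 by the union of exons. Read numbers and intervals take 1 FPKM fragment as 1 read, which holds for single-end reads.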
